A study of Mus musculus with 6 samples.

Results

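The miR-181 family was followed in small RNA libraries of mouse oligodendrocytes and of the extracellular vesicles (EVs) they released. Its members were chosen by name: miR-181a-5p, miR-181b-5p, miR-181c-5p, miR-181d-5p and miR-181c-3p, which are 5 of the 1906 mature miRNAs in each deposited count table. All 5 passed the filter on low counts that left 336 miRNAs for testing. Primary oligodendrocytes from C57BL/6N mice at embryonic day 14 were cultured in Sato medium with 1% horse serum, then washed. The 3 EV libraries, at 5 to 6 days in vitro, came from pellets spun at 100000 g after 24 h of release into serum-free Sato medium with the supplement B27, and the 3 cell libraries came from whole cells at 6 days in vitro. The study's title asks about miRNAs of media supplements that are isolated together with vesicles. Medium alone was not analysed here, so a miRNA in the pellet cannot be assigned to the cells or to the supplement. A pellet of this spin also holds particles other than vesicles.

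A microRNA is cut from a hairpin precursor, and 1 of the hairpin's arms is usually kept in Argonaute as the guide strand while the other, the passenger, is lost. The guide pairs with messenger RNAs mainly through its seed, bases 2 to 8, so members of a seed family can share targets. miR-181 is abundant in brain and in developing lymphocytes, where miR-181a is known for setting the sensitivity of T cell receptor signalling. In the family the 5p arm is the main guide. In the RefSeq table (assembly GRCm38.p6) the family has 6 hairpin genes in 3 neighbouring pairs, Mir181a-1 with Mir181b-1 on chromosome 1, Mir181a-2 with Mir181b-2 on chromosome 2, and Mir181c with Mir181d on chromosome 8. In the GENCODE annotation of GRCm38 the chromosome 8 pair lies in an intron of Nanos3 on the same strand, the chromosome 2 pair in an intron of Nr6a1 on the opposite strand, and the chromosome 1 pair in exons of the long noncoding RNA A430106G13Rik. The authors used another build, so no coordinates are given.

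The mature members are printed from the RefSeq table, 5′ to 3′ with the seed in capitals, to show which of them could be confused with each other and which share a seed.
miR-181a-5p: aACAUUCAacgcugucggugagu
miR-181b-5p: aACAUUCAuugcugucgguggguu
miR-181c-5p: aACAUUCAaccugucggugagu
miR-181d-5p: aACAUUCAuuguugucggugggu
miR-181c-3p: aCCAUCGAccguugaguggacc

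The 4 5p members share the seed ACAUUCA, and no other of the 1679 mature miRNAs in that table has it. Outside the seed they fall into 2 sequence pairs that do not follow the genes' neighbourhood. miR-181a-5p and miR-181c-5p differ by 1 base that is missing from miR-181c-5p. miR-181b-5p and miR-181d-5p differ by the substitution C12U, counted from the 5′ end of miR-181b-5p, and by 1 more base at the 3′ end of miR-181b-5p. Every other pair of 5p members differs at 4 or 5 positions. miR-181a-5p and miR-181b-5p are each made from 2 hairpin genes, so their reads match 2 places in the genome, whereas miR-181c-5p and miR-181d-5p have 1 gene each. How the authors counted reads with more than 1 match is unknown here. This could set the level of miR-181a-5p and miR-181b-5p against the others within a library. If the counting scaled a miRNA by the same factor in all libraries, it would cancel when a ratio of 2 miRNAs is compared between EVs and cells. It would not cancel in shares of the 5p sum. Whether the factor was the same in all libraries was not tested.

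Library totals were 313766 to 689475 counts in EVs and 126910 to 202358 in cells, and levels are given as counts per 1e6 miRNA reads (CPM). A single read stood for 1.45 to 3.19 CPM in an EV library and for 4.94 to 7.88 CPM in a cell library. The EV and cell groups were compared in edgeR by the quasi-likelihood test, after trimmed mean of M-values (TMM) scaling, and a miRNA was called at a Benjamini-Hochberg (BH) adjusted p below 0.05 over all 336 miRNAs. The CPM values printed here carry no TMM factor. Whether the replicates were separate cultures is not stated in the labels, so the p-values rest on a spread between samples that could be technical only. Of all tested miRNAs, 28.6% were called higher in EVs and 28.9% lower. With library size as the only scaling, the median over all 336 log2 fold changes moved from 0.06 to 0.54, and the higher miRNAs made up 71.2% of those called rather than 49.7%. Small fold changes are therefore relative to the scaling.

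With TMM scaling, miR-181a-5p and miR-181b-5p, which make up most of the family, were lower in EVs, and miR-181c-5p was higher. Both of these lower calls ended with library size only. Of the 5 members, 2 were called higher (miR-181c-5p and miR-181c-3p), 2 lower (miR-181a-5p and miR-181b-5p), and miR-181d-5p was not called. In CPM, 3 members were higher in every EV library than in every cell library, as were 47.3% of all tested miRNAs, and 2 were lower throughout, as were 20.2%. Shares of this size among all miRNAs mean that a call or a gap between groups is common in these data. The median log2 fold change of the 5 members was 0.40, against 0.06 over all tested miRNAs. Because members were called in both directions, this median is the value of miR-181d-5p alone, and over all 8 tested arms of the family's hairpins it was -0.67.

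**Figure D1:**
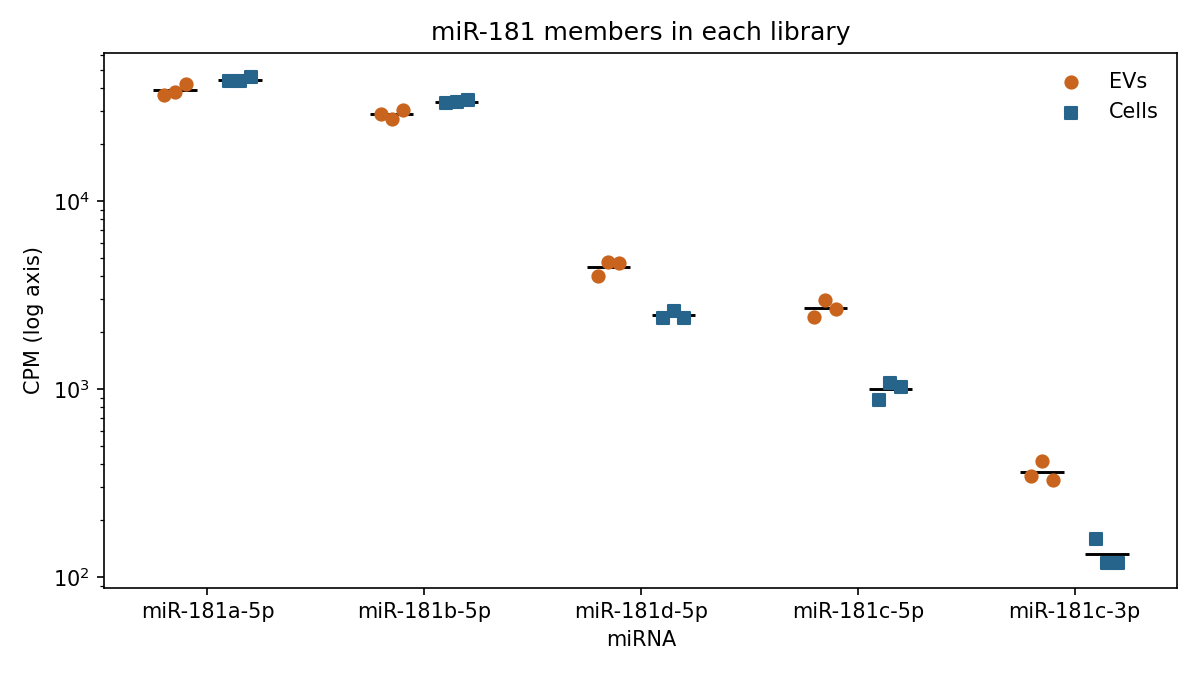
CPM on a log axis for the 5 miR-181 members, with 1 point per library (circles EVs, squares cells) and a line at the mean of each group of 3. The groups do not overlap for any member: miR-181a-5p and miR-181b-5p lie lower in EVs, and miR-181d-5p, miR-181c-5p and miR-181c-3p lie higher.

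miR-181a-5p was the leading member and ranked 3 or 4 among all miRNAs in the EV libraries and 4 or 5 in the cell libraries. It stood at 36517, 38022 and 41861 CPM in EVs replicates 1, 2 and 3, and at 43300, 43708 and 45479 CPM in the cells. The highest EV library therefore lay below the lowest cell library, by less than the range within the EV group. The log2 fold change was -0.66 (SE 0.14, edgeR BH-adjusted p = 0.00378). With library size only it was -0.19 and not called (adjusted p = 0.208), and without a filter it was -0.50 (adjusted p = 0.0527). Over all 16 alternatives, the adjusted p ranged from 7.70e-05 to 0.208.

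miR-181b-5p, the next member, ranked 6 to 8 in both groups. It stood at 29123, 27361 and 30559 CPM in EVs and at 33120, 33559 and 34271 CPM in cells, again with every EV library below every cell library. Its log2 fold change was -0.68 (SE 0.14, edgeR BH-adjusted p = 0.00315), close to that of miR-181a-5p, and the call also ended with library size only (-0.21, adjusted p = 0.165). Under the alternatives that keep a scaling over the whole library, the adjusted p was otherwise at most 0.0411.

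miR-181c-5p, from the chromosome 8 pair, had 137, 137 and 208 reads in cells and 1038, 937 and 1839 in EVs. These are 877, 1080 and 1028 CPM in cells and 2408, 2986 and 2667 CPM in EVs, so the lowest EV library was above the highest cell library by more than the range of either group. Its rank among all miRNAs was 60 to 68 in EVs and 85 to 92 in cells. The mean CPM was 2.70 times as high in EVs. The log2 fold change was 0.98 (SE 0.21, edgeR BH-adjusted p = 0.0033) and the call held in all 17 alternatives, with log2 fold changes of 0.74 to 1.62 and adjusted p-values of 9.56e-05 to 0.0198.

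miR-181d-5p, the neighbour of miR-181c-5p, stood at 3991, 4749 and 4686 CPM in EVs and at 2382, 2608 and 2387 CPM in cells. The groups did not overlap, and the mean CPM was 1.82 times as high in EVs. The TMM fit put its log2 fold change at 0.40 (SE 0.19, edgeR BH-adjusted p = 0.0968), which was not called. With library size only the value was 0.87 and called (adjusted p = 0.0024), and over the 17 alternatives the adjusted p ran from 0.00107 to 0.367. Whether miR-181d-5p counts as higher in EVs therefore depends on the scaling.

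miR-181c-3p, the passenger arm of the miR-181c hairpin, was the scarcest member. It had 148, 130 and 225 reads in EVs (343, 414 and 326 CPM) and 25, 15 and 24 reads in cells (160, 118 and 119 CPM). Every EV library was again above every cell library. The log2 fold change was 0.98 (SE 0.27, edgeR BH-adjusted p = 0.013), equal to 2 decimals to that of its 5p partner. The call ended without EVs replicate 2 (0.72, adjusted p = 0.0512) and without Cells replicate 3 (0.84, adjusted p = 0.0744). Over its 17 alternatives the adjusted p ranged from 0.0008 to 0.0744.

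**Figure D2:**
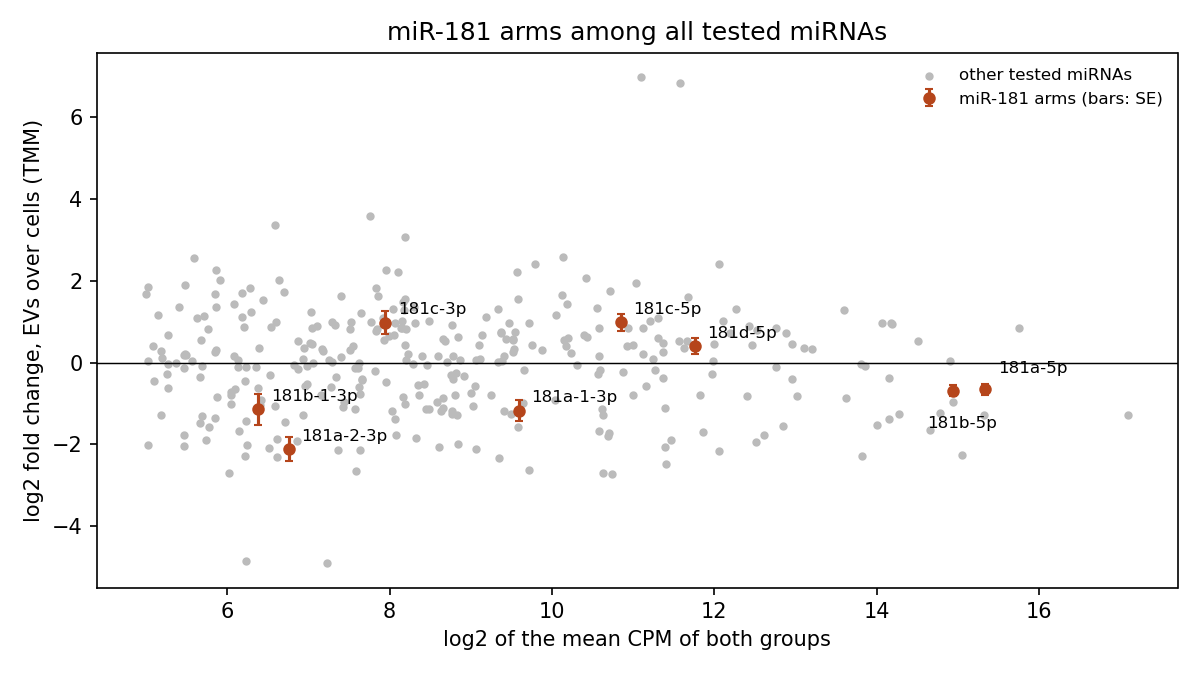
TMM-scaled log2 fold change (EVs over cells) against the log2 of the mean CPM of both groups, for all 336 tested miRNAs (grey) and the 8 tested miR-181 arms (red, bars SE). The arms of the miR-181a and miR-181b hairpins lie below 0 and those of the miR-181c and miR-181d hairpins above it.

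The comparison between members does not need a scaling of libraries, because the ratio of the reads of 2 miRNAs within a library carries none. In each cell library miR-181a-5p had 49.4, 40.5 and 44.2 reads for each read of miR-181c-5p, and in the EV libraries 15.2, 12.7 and 15.7. The log2 ratio of miR-181c-5p to miR-181a-5p was -3.85 ± 0.16 in EVs and -5.47 ± 0.14 in cells (SD, n = 3 each; exact permutation p = 0.1, two-sided, the smallest that 3 against 3 allows). This is a 3.07-fold higher ratio in EVs, in every EV library above every cell library. Such a gap is common for a ratio to miR-181a-5p, which was itself lower in CPM in every EV library. Of all tested miRNAs, 47.3% were higher in CPM in every EV library. The share with a separated ratio to miR-181a-5p was not counted. Left-out libraries, thinning and a pseudocount of 1 kept the log2 difference between 1.53 and 1.69.

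The miR-181d-5p to miR-181a-5p ratio was also higher in every EV library than in every cell library. As for miR-181c-5p, such a gap is common for a ratio to miR-181a-5p. There were 18.2, 16.8 and 19.1 reads of miR-181a-5p for each of miR-181d-5p in cells, and 9.15, 8.01 and 8.93 in EVs. The log2 ratio was -3.12 ± 0.10 in EVs and -4.17 ± 0.09 in cells (SD, n = 3 each; exact permutation p = 0.1), a 2.07-fold higher ratio in EVs. The log2 ratio of miR-181d-5p to miR-181c-5p was 0.74 ± 0.07 in EVs and 1.31 ± 0.12 in cells (SD, n = 3 each; exact permutation p = 0.1). Every EV library lay below every cell library, and this test cannot pass the threshold with 3 against 3.

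Between miR-181b-5p and miR-181a-5p the ratio hardly differed. The log2 ratios were -0.33, -0.47 and -0.45 in EVs and -0.39, -0.38 and -0.41 in cells, and the EV values lay on both sides of the cell values. The difference was -0.03, smaller than the SD of 0.08 within EVs (exact permutation p = 0.6), and it ranged from -0.07 to 0.0018 when a library was left out. For miR-181c-3p against miR-181c-5p the difference in log2 ratio was -0.0032 (exact permutation p = 1), with SDs of 0.12 in EVs and 0.40 in cells. Adjusted over the 5 ratios computed, the p-values were 0.167 for the 3 that did not overlap, 0.75 for miR-181b-5p to miR-181a-5p and 1 for the arms of miR-181c.

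**Figure D3:**
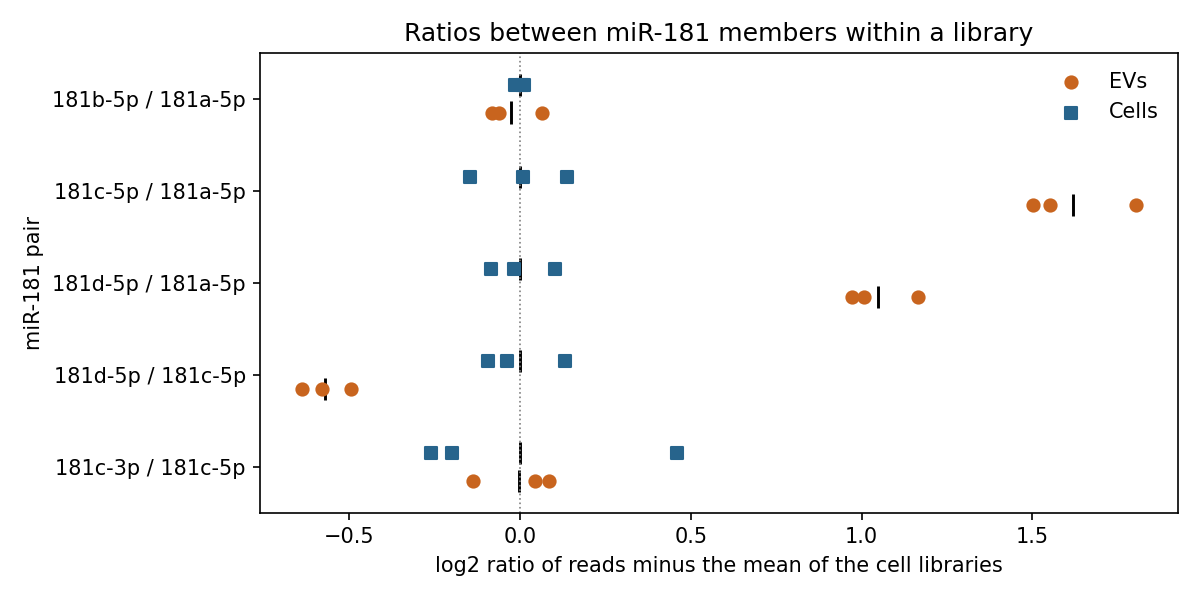
Log2 ratio of reads between 2 miR-181 members in each library, minus the mean of the 3 cell libraries, with circles for EVs, squares for cells and a bar at each group mean. The ratios of miR-181c-5p and miR-181d-5p to miR-181a-5p are higher in EVs by 1.62 and 1.05, while those of miR-181b-5p to miR-181a-5p and of the miR-181c arms overlap between groups.

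Because a permutation of 6 samples cannot pass the threshold, the same question was put to the fit across all miRNAs, with the reads of miR-181a-5p in place of the library size. This scaling was chosen after the data had been seen, and miR-181a-5p had itself been called lower in EVs with TMM scaling. The fit does not replace the permutation test. Relative to miR-181a-5p, the log2 fold change was 1.62 for miR-181c-5p (SE 0.19, edgeR BH-adjusted p = 0.000361), 1.05 for miR-181d-5p (SE 0.16, adjusted p = 0.00107) and 1.64 for miR-181c-3p (SE 0.24, adjusted p = 0.000939). For miR-181b-5p it was -0.02 (SE 0.09, adjusted p = 0.809). On this scale the median of all tested miRNAs was 0.72, and of 336 miRNAs 162 were called higher and 48 lower. A call of higher was therefore common. All 3 positive values lay above that median, but their calls add no separate support to the ratios.

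As a share of all counts, which carries no TMM factor, the 5p family took a similar part of both kinds of library. The sum was not tested with TMM scaling, under which miR-181a-5p and miR-181b-5p, most of the sum, were called lower in EVs. The 4 5p members held 7.20%, 7.31% and 7.98% of all counts in EVs and 7.97%, 8.10% and 8.32% in cells. The highest EV library lay just above the lowest cell library, so the groups overlapped. The means were 7.50% ± 0.42 in EVs and 8.13% ± 0.18 in cells (SD, n = 3 each).

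The make-up of that sum differed more than its size. miR-181a-5p held 51.7% ± 0.92 of the 5p reads in EVs and 54.3% ± 0.35 in cells, and miR-181b-5p held 38.7% ± 1.54 and 41.4% ± 0.18 (SD, n = 3 each). miR-181d-5p held 5.97% ± 0.48 in EVs and 3.03% ± 0.18 in cells, and miR-181c-5p held 3.59% ± 0.43 and 1.22% ± 0.12. Together miR-181c-5p and miR-181d-5p made up 8.88%, 10.6% and 9.22% of the 5p reads in EVs and 4.09%, 4.56% and 4.11% in cells, 2.25 times as much in the mean. The order of the members was the same in all 6 libraries, with miR-181a-5p first, then miR-181b-5p, miR-181d-5p and miR-181c-5p. miR-181a-5p and miR-181c-5p, which differ by 1 base, were called in opposite directions with TMM scaling. Whether near-identical members exchanged reads in the authors' counting was not tested.

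**Figure D4:**
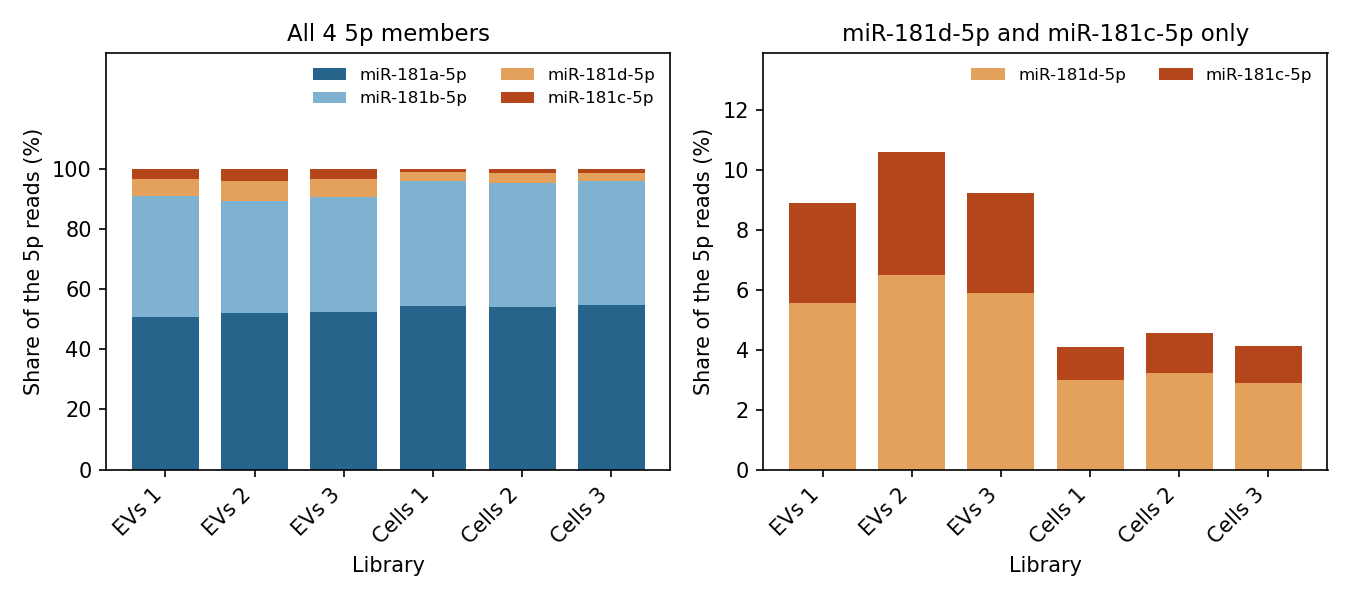
Share of the reads of the 4 5p members held by each member in each library (left) and the part of it held by miR-181d-5p and miR-181c-5p (right, bars from 0). The pair makes up 8.88% to 10.6% in EVs and 4.09% to 4.56% in cells.

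The remaining arms of the family's hairpins are passenger strands that, unlike the 5p arms of miR-181a and miR-181b, name the gene copy they came from. They are printed with the seed in capitals because their reads separate the chromosome 1 pair from the chromosome 2 pair.
miR-181a-1-3p: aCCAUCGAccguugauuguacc
miR-181a-2-3p: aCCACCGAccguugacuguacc
miR-181b-1-3p: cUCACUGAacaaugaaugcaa
miR-181b-2-3p: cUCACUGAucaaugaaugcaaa
miR-181d-3p: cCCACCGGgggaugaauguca

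Of these 5 arms 3 passed the filter, and all 3 were called lower in EVs and 0 higher, with a median log2 fold change of -1.17. Among all tested miRNAs, 28.9% were called lower and 28.6% higher. miR-181a-1-3p stood at 508, 663 and 590 CPM in EVs and at 1101, 827 and 929 CPM in cells, without overlap (log2 fold change -1.17, SE 0.25, edgeR BH-adjusted p = 0.0034). It shares the seed CCAUCGA with miR-181c-3p and differs from it by U16G and U19G, counted from its own 5′ end, yet the 2 arms went opposite ways. In cells this passenger strand was about as abundant as the guide miR-181c-5p, with overlapping values. In EVs the guide was at 2408 to 2986 CPM and the passenger at 508 to 663 CPM. Relative to the reads of miR-181a-5p its log2 fold change was -0.51 and not called (edgeR BH-adjusted p = 0.063, in a range of 1.89e-05 to 0.063 over its 17 alternatives).

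miR-181a-2-3p, the passenger of the chromosome 2 copy, fell the most. It had 19, 17 and 40 reads in EVs (44.1, 54.2 and 58.0 CPM) and 27, 23 and 28 reads in cells (172.9, 181.2 and 138.4 CPM). The log2 fold change was -2.11 (SE 0.30, edgeR BH-adjusted p = 0.000372), and relative to miR-181a-5p it was still -1.46 (adjusted p = 0.00212). The call held in all 17 alternatives. Of the reads of both miR-181a 3p arms, those of miR-181a-1-3p made up 92.0%, 92.4% and 91.1% in EVs and 86.4%, 82.0% and 87.0% in cells. The exact 95% binomial intervals of single libraries lay within 87.8% to 95.5% for EVs and within 74.3% to 91.2% for cells, and they overlap for single libraries. These intervals cover counting error only, and they can be too narrow even for that, since PCR copies are not independent molecules.

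The miR-181b passengers were rarer. miR-181b-1-3p stood at 81.2, 35.1 and 76.9 CPM in EVs and at 128, 70.9 and 109 CPM in cells, with EVs replicates 1 and 3 above Cells replicate 2. Its log2 fold change was -1.15 (SE 0.39, edgeR BH-adjusted p = 0.0298). The call did not hold relative to miR-181a-5p (-0.47, adjusted p = 0.31, the highest over its 17 alternatives and 0.0124 the lowest), with library size only (-0.65, adjusted p = 0.174), without a filter (-0.99, 0.0692), after thinning (-0.96, 0.0534), or without Cells replicate 1 (-0.90, 0.105) or Cells replicate 3 (-1.17, 0.0774). miR-181b-2-3p had 1, 3 and 3 reads in EVs and 2, 1 and 0 in cells. miR-181d-3p had 2 reads in EVs replicate 3 and 0 in the other 5 libraries, where a count of 0 leaves room for 3 reads, or 6.96 and 9.56 CPM in the EV libraries and 14.8 to 23.6 CPM in the others. Both were below the filter and were not tested.

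The balance of the 5p and 3p arms of each hairpin was tested across all hairpins with limma on log2((5p + 0.5)/(3p + 0.5)). Of 187 hairpins 35.8% were called, and of the 53 with at least 10 reads in each arm in every library, a limit chosen after seeing the data, 45.3% were called. In the miR-181c hairpin the 3p arm held 12.5%, 12.2% and 10.9% of its reads in EVs and 15.4%, 9.87% and 10.3% in cells, with overlap, and the log2 difference was 0.0032 (SE 0.41, limma BH-adjusted p = 0.994). For miR-181a, the 3p arms of both copies were added. The 3p share was 1.49%, 1.85% and 1.53% in EVs and 2.86%, 2.26% and 2.29% in cells. These values did not overlap, but how many of the 187 hairpins separate in this way was not counted. The gap is therefore not read as particular to miR-181a. The log2 ratio of 5p to 3p was higher by 0.62 in EVs (SE 0.39, limma BH-adjusted p = 0.259, or 0.0907 with at least 10 reads in each arm) and was not called. For miR-181b it was higher by 0.47 (limma BH-adjusted p = 0.445) and not called. The miR-181d hairpin was called at 1.60 (limma BH-adjusted p = 0.0354), but with 2 reads of its 3p arm in all, the ratio follows the depth of the 5p reads, and the call ended without any 1 of 5 libraries (1.33 to 1.75, EVs replicate 3 being the exception).

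Markers of other cells moved between the groups as well. The oligodendrocyte list (miR-219a, miR-338 and miR-138 arms) added up to between 33557 and 36111 CPM in EVs and to between 33961 and 43435 CPM in cells, with 2 of 5 arms called higher and 3 lower, so the labelled cell type's miRNAs were present in all libraries. The neuron list came to 89590 to 118690 CPM, against 35923 to 50823 CPM in cells, with 3 of 3 called higher. The erythroid list came to 3944 to 7835 CPM against 212 to 256 CPM, and the liver list to 6046 to 11020 CPM against 397 to 524 CPM. The mural list stood at 2336 to 4570 CPM against 355 to 999 CPM, and the endothelial list at 182 to 303 CPM against 63.0 to 93.9 CPM. The list for myeloid cells came to 612 to 1936 CPM against 1592 to 4566 CPM, with overlap, and 4 of 5 arms were called lower. The lymphocyte list came to 188 to 397 CPM against 402 to 1062 CPM. Its 2 tested arms, both called lower, were miR-142a-3p and miR-155-5p, which the myeloid list also holds, so it is no separate result. The list for astrocytes and progenitors, led by miR-9-5p, stood at 126640 to 163246 CPM against 192209 to 212614 CPM, with 1 of 3 called higher and 1 lower. The 1 called higher was miR-143-3p, which also belongs to the mural list. miR-150-5p, the defining lymphocyte miRNA of its list, was below the filter, at 4.64 to 15.9 CPM in EVs and 0 in all 3 cell libraries. A count of 0 there leaves room for 14.8 to 23.6 CPM, so no difference was detectable at this depth. The part of these cells or of the supplement in the levels of miR-181 was not tested. The EV libraries were made from pellets and not from cells, so these differences cannot be read as numbers of cells of a type.

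The miRNAs with the closest pattern were those with the smallest root mean square difference of centred log2 CPM over the 6 libraries, out of 328 tested miRNAs outside the family. These log2 CPM values, unlike the printed CPM, carried the TMM factors. For miR-181a-5p and miR-181b-5p the same 3 came out, miR-298-5p (0.13 and 0.11), miR-99a-5p (0.13 and 0.14) and miR-106b-3p (0.14 and 0.15). For miR-181c-5p they were miR-93-3p (0.11), miR-30e-5p (0.13) and miR-101a-3p (0.14), and for miR-181d-5p miR-101b-3p (0.11), miR-149-5p (0.13) and miR-345-5p (0.14). The 6 libraries are 2 groups of 3, and miRNAs with a like difference between the groups score as close.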

How the data were processed

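Each sample has a table of raw read counts for mature miRNAs, as the authors deposited it. The submitters' processing notes name the build NCBIM37 (mm9) and the tools featureCounts 1.4.6-p4 of Subread, Bowtie 0.12.8, cutadapt 1.7.1 and bcl2fastq 1.8.4. For strand, multiple matches, the 4 random adapter bases and the annotation release, the handling is not given in the sources used here.

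The labels gave groups and replicate numbers. Counts were tested with edgeR 4.0.16 in R 4.3.3 (filterByExpr with a minimum count of 10, TMM, glmQLFTest, two-sided) and arm ratios with limma 3.58.1, with BH adjustment over all miRNAs or hairpins tested. Ratios used a pseudocount of 0.5. DESeq2 1.42.0, limma-voom and other scalings and filters were alternatives. The code was tested on simulated data. There, arm ratios gave some false calls with no minimum per arm and fewer with 10 reads in each arm, and that limit was added as an alternative after the data had been seen.

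Deviations of TMM-scaled log2 CPM from the group mean correlated weakly between libraries of the same number (r = 0.115, 0.103 and 0.254 over 336 miRNAs). Between libraries of different numbers r was -0.140 to 0.020. Centring within groups of 3 ties these values to each other, so they cannot establish pairing. The numbers were treated as pairs in a blocked alternative. Within groups, chi-square over degrees of freedom was 7.73 to 37.5, so no pair of libraries agreed within sampling noise. The members, lists and markers were chosen with earlier results of these data known. Named miRNAs were all rows of the family, the markers, and for each 5p member the 3 miRNAs of closest pattern. All 10 family arms matched the RefSeq sequence table.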

Additional observations from a re-analysis of the deposited data

How the results depend on the processing

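With the replicate block no call of a miR-181 arm changed (miR-181a-5p -0.65, miR-181c-5p 0.97), and 91 miRNAs were called higher and 96 lower. With library size only, the numbers were 148 and 60, and miR-181a-5p (-0.19), miR-181b-5p (-0.21), miR-181b-1-3p (-0.65) and miR-181d-5p (0.87) changed their side of the threshold. Scaled to miR-181a-5p, the numbers were 162 and 48, miR-181b-5p stood at -0.025 and miR-181d-5p at 1.05. Without a filter miR-181a-5p stood at -0.50. When single libraries were left out, miR-181c-3p ranged from 0.72 to 1.20, the log2 difference of the ratio of miR-181b-5p to miR-181a-5p from -0.072 to 0.0018, and that of miR-181c-3p to miR-181c-5p from -0.13 to 0.23. The arm ratio of miR-181c turned negative without EVs replicate 3 (-0.06) and without Cells replicate 1 (-0.23), reached 0.13 without Cells replicate 2, and was not called in any alternative. The number of hairpins called, 67 of 187 (35.8%), was 24 of 53 (45.3%) with at least 10 in each arm, so the share was higher there. It was 40 with at least 50 counts and 36 to 60 when a library was left out, the lowest without EVs replicate 1. Of 343 alternative values over 40 results, 311 kept their direction and side. A value with no test counted as kept within 1 SD or 1.5 times. Leaving out 1 library of a group of 3 cannot move its mean by 1 SD, so those values were kept by arithmetic. The replicate block likewise cannot change the mean difference of a ratio. The tally is therefore no measure of stability. Cell libraries of 126910 to 202358 counts limit what can be said of the rare 3p arms.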
